A study of Mus musculus with 24 samples.

Results

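The 35 genes described here build the calcium cycle and the membrane currents of heart muscle cells. They were taken as a list of symbols, and all 35 were found among 21883 protein-coding genes on chromosomes 1 to 19, X and Y of mouse build mm10. They are long genes, from 3.6 to 610.1 kb with a median of 66.01 kb, against a median of 17.17 kb for all protein-coding genes. In heart muscle, calcium enters through L-type channels and opens ryanodine receptors of the sarcoplasmic reticulum, a pump returns it to that store, and an exchanger moves it out of the cell. Potassium, pacemaker and gap junction channels repolarise, pace and connect the cells. Several members, among them the connexin gene Gja1, the kinase gene Camk2d and Asph, are also used outside muscle.

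The samples were CUT&RUN libraries, in which a nuclease held at an antibody releases the DNA around its target. All came from iMGT-Myh6-eGFP-MEF, a mouse embryonic fibroblast line in which doxycycline turns on Mef2c, Gata4 and Tbx5, and which carries eGFP named for Myh6. For the day 1 groups, siControl, siJunb or siH1f0 was transfected, doxycycline (1 µg/mL) followed on the next day, and about 250000 cells per condition were taken on day 1 of induction. MEF2C was mapped in these groups, with n = 2 for siControl and n = 3 for each of the knockdowns. H1.0, the linker histone that siH1f0 targets, was mapped under siControl on day 1 (n = 2) and in the ground state, which was not reprogrammed (n = 2). H3K9me3, a histone mark of silent heterochromatin, was mapped in the same groups (n = 2 each). The labels list no treatment for the ground state, but its library names carry siControl, so what separates it from day 1 besides doxycycline is not settled by the labels. All groups share 1 line and its transgenes, the antibody does not tell induced MEF2C from the cells' own, and the knockdowns were not checked here. IgG samples were not analysed here, and no RNA was measured, so levels of expression are not addressed.

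Each library is 1 deposited list of peaks with whole-number coverage that is not scaled between lists. MEF2C lists held 11731 to 49011 peaks over 13.45 to 89.82 Mb, H3K9me3 lists 24219 to 69439 peaks over 65.86 to 363.4 Mb, and H1.0 lists 32934 to 722322 peaks over 28.57 to 1109.4 Mb. A pair of naming series runs through the libraries, and it does not follow the replicate numbers. The first holds the MEF2C libraries siControl 1, siJunb 1 and siH1f0 3, the first ground-state library of each mark, H3K9me3 day 1 replicate 1 and H1.0 day 1 replicate 2. The first series covered less of the genome than the second for each antibody. Its part is given beside some of the results below, and counts of lists with a peak can follow it. These lists cannot check the labelled cell type. Both siControl MEF2C lists had a peak within 5 kb of an end of 6 of 9 fibroblast and 3 of 10 cardiomyocyte marker genes, against 20.4% of protein-coding genes. The exact tests below do not take the naming series into account.

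A peak was placed at a gene end when it reached within 5 kb of either annotated end, and in the locus when it touched the gene or 5 kb on each side. The strength of a peak is its rank percentile, by maximum coverage, within its own list. There 100 is the strongest peak, and a gene without a peak counts as 0. Maxima are often small whole numbers shared by many peaks, so 1 unit of coverage can move a percentile far. In siJunb 2, maxima of 5, 6, 7 and 8 gave percentiles of 9.79, 28.1, 48.9 and 65.2. Rank differences at siJunb libraries can thus rest on a few units of coverage. RefSeq promoter sequences of GRCm38.p6, the assembly of mm10, were matched for 25 of 35 members, with 30 promoters. The 4 below are shown because Kcnj2 had a MEF2C peak on its promoter in all 8 lists, the start of Cacna1c carries the peak behind the siJunb call, and Gja1 and Casq2 hold a match to AP-1 and MEF2 letters. Each is the 250 bases before the start, 5′ to 3′, and capitals mark motif matches.
Kcnj2, chr11:111065914-111066163, plus strand: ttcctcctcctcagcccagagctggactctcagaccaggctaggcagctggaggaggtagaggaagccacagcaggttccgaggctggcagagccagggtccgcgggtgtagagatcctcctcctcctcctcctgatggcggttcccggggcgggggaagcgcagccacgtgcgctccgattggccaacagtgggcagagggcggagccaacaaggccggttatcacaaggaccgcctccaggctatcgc
Cacna1c, chr6:119196410-119196659, minus strand: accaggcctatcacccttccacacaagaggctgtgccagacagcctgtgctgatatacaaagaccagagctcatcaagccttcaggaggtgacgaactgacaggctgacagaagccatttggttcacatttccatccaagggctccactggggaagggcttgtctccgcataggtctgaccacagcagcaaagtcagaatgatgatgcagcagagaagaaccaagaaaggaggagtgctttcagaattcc
Gja1, chr10:56377050-56377299, plus strand: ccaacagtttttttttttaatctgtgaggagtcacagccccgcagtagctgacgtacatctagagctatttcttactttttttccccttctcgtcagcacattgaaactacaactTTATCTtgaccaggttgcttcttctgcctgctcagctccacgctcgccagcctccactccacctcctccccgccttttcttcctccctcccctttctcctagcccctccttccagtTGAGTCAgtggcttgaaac
Casq2, chr3:102086165-102086414, plus strand: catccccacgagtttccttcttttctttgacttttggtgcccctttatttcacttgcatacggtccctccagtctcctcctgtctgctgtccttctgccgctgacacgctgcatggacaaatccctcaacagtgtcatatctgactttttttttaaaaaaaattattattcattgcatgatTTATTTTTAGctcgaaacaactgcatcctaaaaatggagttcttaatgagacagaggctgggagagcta

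The motifs were searched on both strands over the 250 bases before and 50 bases after each start. A MEF2 consensus stood in 2 of 30 member promoters and 3.187% of all 32851 promoters. In Casq2, which encodes calsequestrin, the calcium buffer of the sarcoplasmic reticulum, the match TTATTTTTAG began 69 bases before the start, and in Abcc9 it crossed the start. The AP-1 letters TGACTCA, to which JUNB is known to bind with FOS partners, stood in 1 member promoter, that of Gja1, 19 bases before the start, and in 5.202% of all promoters. The GATA letters AGATAA stood in 4 member promoters, Gja1 among them at 135 bases before the start, and in 11.18% of all. The T-box letters AGGTGTGA stood in 0 member promoters and 1.275% of all. MEF2C peaks touched the promoter of Gja1 in 4 of 8 lists and that of Casq2 in 3 of 8, all of them second-series lists. Kcnj2, the only member promoter touched in both siControl lists, holds none of these letters, and 2385 of all promoters (7.26%) were touched in both. A match describes letters only.

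In siControl cells on day 1, MEF2C peaks stood at an end of 10 of 35 members in both lists (28.6%), against 20.4% of protein-coding genes. The 10 were Cacna1c, Cacna2d1, Trdn, Asph, Hrc, Srl, Camk2d, Atp2a2, Sln and Kcnj2. The count followed the list: with the strongest 11731 peaks of each list it was 3 (8.57%; 13.7% of genes), with the upper 50% of each it was 4 (11.4%; 11% of genes), and in siControl 2 alone it was 16 (45.7%; 42.4% of genes). Members were below all genes at equal list lengths and within 1 percentage point of them in the upper 50%. Counting the whole locus, both lists had a peak at 14 members (40%), against 28.4% of genes, and Jph1, Jph2, Kcnj3 and Kcnq1 joined the 10. The part of gene length in these shares was not tested. Per 100 kb of locus, members held 0.797 and 1.35 peaks in the 2 siControl lists, below the 0.962 and 1.89 of all genes. The order was the same in the 6 knockdown lists, with 0.574 to 1.85 peaks per 100 kb at members and 0.793 to 3.25 at all genes.

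By role, both siControl lists had an end peak at 2 of 5 surface calcium channel genes, 5 of 10 genes of the release unit, 2 of 3 reuptake genes and 1 of 10 potassium channel genes. The count was 0 of 3 for extrusion, 0 of 2 for pacemaker channels and 0 of 2 for gap junctions. Each role is too short a list for its share to be read against all genes.

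Across all 8 lists, knockdowns included, an end peak was present at 5 members (14.3%; 10.1% of genes). These were Kcnj2, Trdn, Sln, Atp2a2 and Hrc. The locus held a peak in all 8 lists at 11 members (31.4%; 16.1% of genes), with Cacna1c, Asph, Jph1, Jph2, Srl and Camk2d in addition.

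Kcnj2 encodes the inward rectifier channel Kir2.1, which sets the resting potential, and its median end percentile over the 8 lists, 94.1, was the highest of the 35. Its percentiles were 87.9 and 94.7 under siControl, 88.0, 94.7 and 95.6 under siJunb, and 93.5, 98.6 and 84.3 under siH1f0. The groups overlapped, and in the lowest list, siH1f0 3, Sln equalled it and Trdn stood higher. Its peak region lies at chr11:111063753-111070037 and spans the start of the gene, whose preceding 250 bases are printed above. Trdn encodes triadin, which ties calsequestrin to the ryanodine receptor. Its end peaks were at percentiles 60.2 and 85.8 under siControl, 40.8, 65.2 and 77.9 under siJunb, and 84.7, 96.5 and 86.9 under siH1f0. The siH1f0 values lay above all siJunb values (61.3 ± 18.8 against 89.4 ± 6.26, SD, n = 3 each; two-sided exact permutation p = 0.1, the smallest possible), while siControl overlapped siJunb.

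The reuptake genes differed among themselves. Atp2a2, the SERCA2 pump that refills the store, had percentiles of 31.2 and 55.2 under siControl, 66.1, 89.4 and 77.9 under siJunb, and 59.2, 72.9 and 29.5 under siH1f0. All 3 siJunb values lay above both siControl values (77.8 ± 11.6, n = 3, against 43.2 ± 17.0, n = 2, SD; two-sided exact permutation p = 0.2, the smallest possible). Sln, encoding sarcolipin, a small inhibitor of that pump, stood at 66.7 and 82.5, at 55.2, 86.6 and 54.9, and at 83.7, 87.0 and 84.3 in the same order. Its siJunb values spread around those of siControl. Of the 35 members, only Cacna1c, Asph and Atp2a2 had end percentiles that did not overlap between siJunb and siControl. Cacna1c and Asph were lower under siJunb, and Atp2a2 was higher. The share of all genes with such a separation was not computed, so these separations are not read as a result about the members. Pln, encoding phospholamban, the other small inhibitor, had an end peak in 1 siJunb list (replicate 2, percentile 65.2) and 1 siH1f0 list (replicate 2, percentile 24.4). Both lists are of the second naming series, and both peaks also lie within 5 kb of Cep85l. Atp2a2 also differed in how much of the locus lay under peaks. The share was 3.59% and 20.2% under siControl, 4.01%, 46.2% and 44.8% under siJunb, and 23.0%, 34.7% and 5.54% under siH1f0. Here the low values are the 3 first-series libraries, 1 in each group.

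Hrc encodes a histidine-rich calcium-binding protein of the reticulum, and its end peaks were weak. They stood at percentiles 9.34 and 39.5 under siControl, 40.8, 75.9 and 22.8 under siJunb, and 25.5, 41.0 and 15.4 under siH1f0. The groups overlapped. The region, chr7:45338015-45342751, also lies within 5 kb of Trpm4 and Ppfia3, so the peak cannot be given to Hrc alone.

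**Figure D1:**
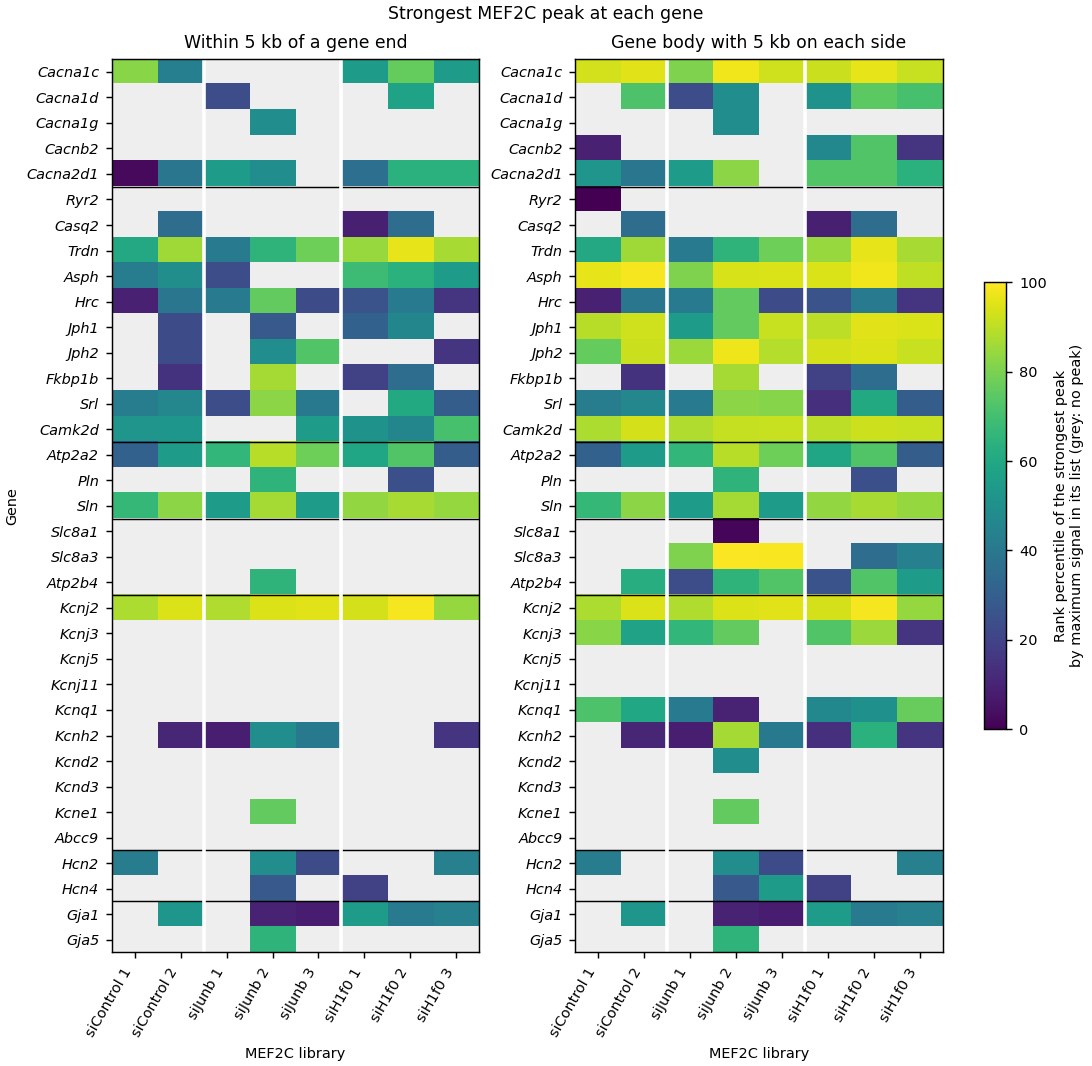
Rank percentile of the strongest MEF2C peak at each of the 35 genes (rows, grouped by role with black lines) in each of the 8 libraries (columns), at gene ends on the left and over the whole locus on the right. Grey is no peak. Kcnj2, Trdn, Sln, Atp2a2 and Hrc are filled in all 8 columns on the left, Cacna1c is grey in the 3 siJunb columns there, and Kcnj5, Kcnj11, Kcnd3 and Abcc9 are grey throughout.

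At the other extreme, 4 members had no MEF2C peak in the locus in any of the 8 lists (11.4%; 31.6% of genes). They were Kcnj5 (29.68 kb) and Kcnj11 (3.83 kb), inward rectifier subunits of the acetylcholine-gated and ATP-sensitive channels, Kcnd3 (222.1 kb), a channel of the transient outward current, and Abcc9 (114.9 kb), the sulphonylurea receptor of ATP-sensitive channels. All 4 belong to the potassium channel group. At gene ends, 11 members had a peak in 0 of 8 lists (31.4%; 37.5% of genes). Ryr2, the release channel of the reticulum, had 1 peak in 553.8 kb, in siControl 1, at percentile 0.338 and far from either end. Slc8a1, the main sodium-calcium exchanger of the heart, had 1 in 365.3 kb, in siJunb 2, at percentile 1.35. Cacna1g, Kcnd2, Kcne1 and Gja5 likewise had a single peak, in siJunb 2, at percentiles of 48.9, 48.9, 75.9 and 65.2. The siJunb 2 list is the longest of the 8, with 49011 peaks.

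Among the other members, end peaks appeared in some lists of some groups. Srl, the reticulum protein sarcalumenin, lacked one in 1 of 8 lists, siH1f0 1, and Cacna2d1, an accessory calcium channel subunit, in siJunb 3. Camk2d, the calmodulin kinase of heart muscle, and Asph, the locus of aspartyl hydroxylase and junctin, had end peaks in 6 of 8 lists. Gja1, connexin 43, also had one in 6 of 8. Its percentiles were 0 and 52.5 under siControl, 0, 9.79 and 8.2 under siJunb, and 55.4, 41.0 and 43.4 under siH1f0. All siH1f0 values lay above all siJunb values (46.6 ± 7.74 against 6.00 ± 5.25, SD, n = 3 each; two-sided exact permutation p = 0.1), and siControl spanned both. The other members whose end percentiles separated siH1f0 from siJunb were Cacna1c, Trdn and Asph, all higher under siH1f0. The share of all genes that did so was not computed, so this too is not read as a result about the members. Kcnh2, the channel of the rapid delayed rectifier current, had end peaks in 5 of 8 lists, with a highest percentile of 48.9. Hcn2, a pacemaker channel, the junctophilins Jph1 and Jph2, and Fkbp1b, a ryanodine receptor partner, each had them in 4 of 8. Casq2 had them in 3, Cacna1d and Hcn4 in 2, and Atp2b4, a plasma membrane calcium pump, in 1. All end peaks of Jph1, Fkbp1b, Casq2, Hcn4 and Atp2b4 were in second-series libraries. Cacnb2, Slc8a3, Kcnj3 and Kcnq1 had peaks in the gene body alone.

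Merging the peaks of all 8 lists gave 77240 regions, and 203 of them lay at members. Of the 203, 16 were in all 8 lists (7.88%; 5.58% of all regions), 38 in both siControl lists (18.7%; 14% of all) and 89 in 1 list (43.8%; 56.4% of all). Among regions at any protein-coding locus these shares were 6.06%, 14.5% and 54.05%. Most member regions stood inside genes, at 149, of which 11 were in all 8 lists. Cacna1c and Camk2d had the most regions, 30 each, and Hrc, Gja1, Kcnj2 and 7 others had 1. The strongest region by its mean percentile over the 8 lists lay inside Asph, at chr4:9655706-9660488, with a mean of 93.3. Its percentiles were 96.2 and 98.6 under siControl, 80.6, 93.9 and 94.3 under siJunb, and 94.4, 97.9 and 90.5 under siH1f0. The siJunb values lay below both siControl values, by a mean of 7.78 percentile points (two-sided exact permutation p = 0.2).

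The region of Kcnj2 came next with a mean of 92.2, followed by one inside Jph2 at chr2:163361737-163366821 with 89.9. Jph2 encodes the junctophilin that joins the surface membrane to the reticulum in heart muscle. A pair inside Cacna1c, the pore of the cardiac L-type channel, had means of 86.0 (chr6:118856002-118860462) and 85.9 (chr6:118882936-118886894). A region inside Jph1, at chr1:17039702-17043222, had a mean of 85.6. The remaining 4 of the first 10 were all inside Camk2d, with means of 76.5 to 80.2. Of these 10 regions 1 lies at a gene end, that of Kcnj2, and the other 9 are in gene bodies.

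Next, the siJunb lists were compared with siControl, to ask where the knockdown changes MEF2C at these genes. A call needs a peak in every library of 1 group and in none of the other. At gene ends 1 member was called lost under siJunb, Cacna1c (2.86%; 1.06% of genes), and 0 were called gained (0.484% of genes). The end percentiles of Cacna1c were 82.2 and 43.1 under siControl, 0, 0 and 0 under siJunb, and 55.4, 76.2 and 55.0 under siH1f0. The groups siControl and siJunb did not overlap, with 62.7 ± 27.6 (SD, n = 2) against 0 in all 3 libraries (two-sided exact permutation p = 0.2, the smallest possible). The separation, the p and the presence of the pattern in both naming series all follow from the rule of the call. None of them adds support for it.

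The call for Cacna1c rests on 2 different regions. In siControl 1 and in all 3 siH1f0 lists the peak lies at chr6:119196322-119198261, over the start whose bases are printed above. In siControl 2 it lies at chr6:119199186-119201141, 2777 bases before that start, with a second one there in siH1f0 2. Both also lie within 5 kb of Dcp1b, so they cannot be given to Cacna1c alone. The body of Cacna1c was not emptied: its locus held 8 and 16 peaks under siControl, 5, 20 and 8 under siJunb, and 11, 20 and 12 under siH1f0. The pair of strong inner regions named above was in all 8 lists. In siJunb 1 they stood at percentiles 55.2 and 40.8, the lowest of the 8, from maxima of 7 and 6. With the strongest 11731 peaks kept of each list, or the upper 50% of each, the call was lost.

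Over the whole locus 0 members were called lost under siJunb (1.15% of genes) and 1 gained, Slc8a3, a sodium-calcium exchanger gene (2.86%; 0.704% of genes). Its locus percentiles were 0 and 0 under siControl, 80.6, 99.3 and 98.9 under siJunb, and 0, 35.9 and 43.4 under siH1f0. The 3 siJunb lists each have a peak of 818, 970 or 972 bp in 1 region, chr12:81278006-81279034, which lies 54146 bases from the nearest Slc8a3 start in the RefSeq table. The siH1f0 peaks lie elsewhere in the gene, in places of their own in each list. The call was the same with equal list lengths, with the upper 50% of peaks and with peak midpoints in place of overlap. The region lay partly or wholly under H1.0 peaks in all 4 H1.0 lists, with 58.3% and 100% of it covered in the ground state and 89.5% and 49.7% on day 1. It touched 0 of 4 H3K9me3 lists.

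Region by region, 6 of the 203 were lost under siJunb (2.96%; 1.98% of all regions). They were 3 in Asph, 2 in Cacna2d1 and 1 in Kcnq1, the channel of the slow delayed rectifier current. The clearest in rank was chr4:9642989-9645669 in Asph, at percentiles 79.5 and 66.1 under siControl, 55.4, 76.2 and 71.0 under siH1f0, and absent in the 3 siJunb lists. The Kcnq1 region, chr7:143292784-143297325, stood at 72.0 and 18.8 under siControl and at 19.7, 35.9 and 76.6 under siH1f0. Both regions were thus held by all 5 libraries outside siJunb, and noncoding genes at or near them were not looked up. The end peaks of Asph went the same way, at percentiles 42.4 and 49.6 under siControl, 23.6, 0 and 0 under siJunb, and 68.4, 63.8 and 55.0 under siH1f0. The 3 groups did not overlap there (siJunb against siControl, -38.1 percentile points, p = 0.2, and siJunb against siH1f0, -54.6, p = 0.1, two-sided exact permutation tests). Both p are the smallest possible, and the siJunb values rest on 1 peak, in siJunb 1. How many of all genes separate like this was not computed. The strongest Asph region, at chr4:9655706-9660488, was nevertheless present in every siJunb list. The 1 region gained, that of Slc8a3, is 0.493% of 203, against 0.256% of all regions.

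Under siH1f0, 0 members were called lost (0.155% of genes) and 0 gained (0.612% of genes) at gene ends, and 0 and 0 over the locus (0.183% and 0.621% of genes). By region 1 of the 203 was lost (0.493%; 0.249% of all regions) and 0 were gained (0.448% of all regions). The lost one is chr3:126638093-126640154 in Camk2d, at percentiles 52.2 and 39.5 under siControl, absent in the 3 siH1f0 lists, and present in siJunb 3 at 77.9. The Camk2d locus held 16, 23 and 13 peaks under siH1f0, against 11 and 16 under siControl. Some ranks were higher under siH1f0 without a change of call. Locus percentiles did not overlap siControl at Cacna2d1, Cacnb2, Kcnh2 and Sln, nor end percentiles at Asph and Sln, and siH1f0 was the higher each time. The strongest Cacna2d1 peak in the locus stood at 45.8 ± 9.02 under siControl (n = 2) and 70.0 ± 5.18 under siH1f0 (SD, n = 3, two-sided exact permutation p = 0.2, the smallest possible). At the ends of Cacna2d1 the groups overlapped. How many of all genes separate in this way was not computed, so these ranks are not read as a result about the members.

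**Figure D2:**
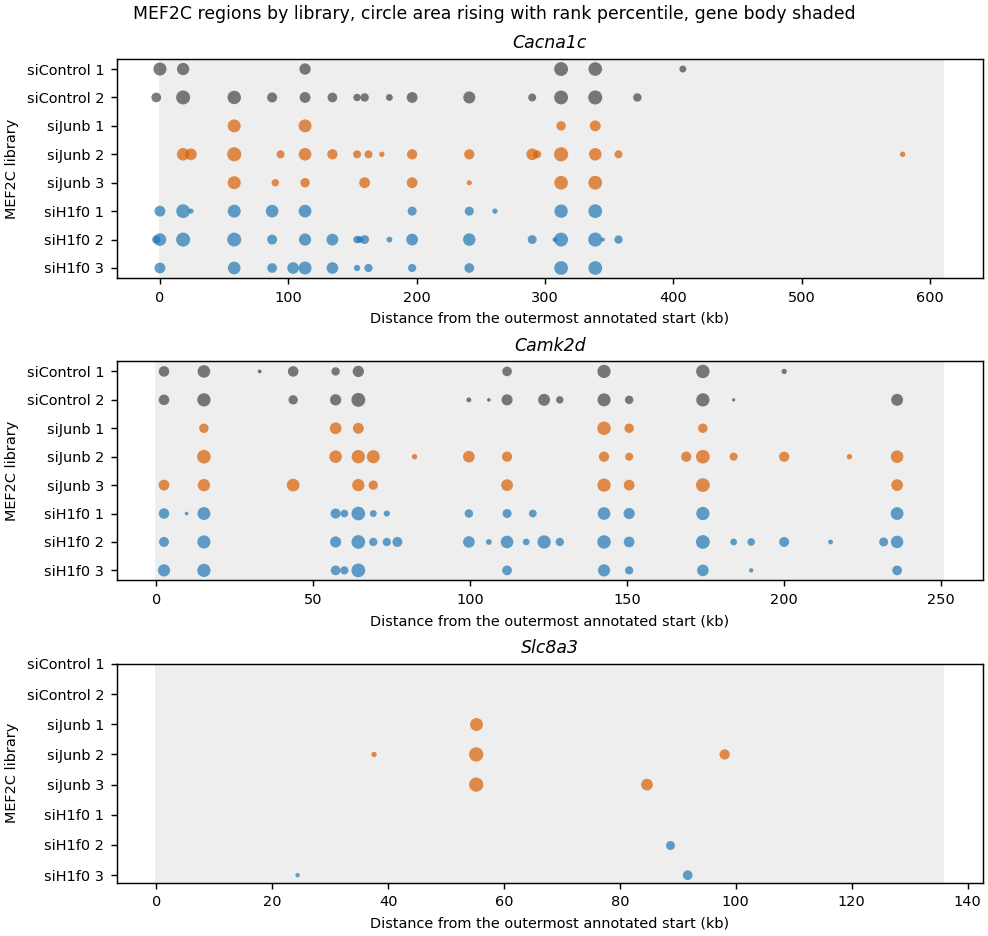
MEF2C regions along Cacna1c, Camk2d and Slc8a3 in the 8 libraries (rows), by distance in kb from the outermost annotated start, where the area of a circle rises with the rank percentile and grey shading marks the gene. At Cacna1c no siJunb row has a circle at the start, while the regions at 312.5 and 339.1 kb are present in all 8 rows. At Slc8a3 the 3 siJunb rows share 1 circle, which the other 5 rows lack.

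A direct comparison of siJunb with siH1f0 followed. At gene ends Cacna1c was the 1 member with a peak in all siH1f0 and no siJunb list (2.86%; 0.914% of genes), and 0 had the opposite pattern (0.265% of genes). This is not separate evidence for Cacna1c, since the siJunb lists are those of the comparison with siControl. Over the locus the 1 member was Cacnb2, an accessory subunit of L-type channels (2.86%; 0.973% of genes), with 0 in the opposite direction (0.352% of genes). Its locus percentiles were 46.8, 72.9 and 15.4 under siH1f0, 0, 0 and 0 under siJunb, and 9.34 and 0 under siControl. No region was shared by the 3 siH1f0 lists, and the call was lost with equal list lengths and with the upper 50% of peaks.

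By region, 5 of the 203 were in all siH1f0 and no siJunb list (2.46%; 1.41% of all regions), and 1, that of Slc8a3, was the reverse (0.493%; 0.132% of all regions). The 5 are the Asph and Kcnq1 regions above, the start of Cacna1c, 1 more region in Cacna1c and 1 in Cacna1d. The second Cacna1c region, chr6:119108575-119111262, begins 80 bases before another start of that gene and stood at percentiles 76.8, 45.8 and 43.4 under siH1f0. It was in siControl 2 at 46.4 and not in siControl 1. A neighbouring region, chr6:119106420-119108472, ends 23 bases from the same start and was in siJunb 3 alone, at 22.8. Peaks touched the promoter of that start in siControl 2, siH1f0 3 and siJunb 3, so the contrast holds for the region and not for the start. The Cacna1d region, chr14:30408543-30411890, stood at 46.8, 74.6 and 71.0 under siH1f0 and at 69.3 in siControl 2. Cacna1d encodes another L-type channel pore, used in pacemaker cells.

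H3K9me3 was sparse over most of these genes and dense over 1 of them. The share of the gene body under H3K9me3 peaks was 0 in all 4 lists for 16 members (45.7%; 69.8% of genes), among them Atp2a2, Pln, Sln, Casq2, Kcnj2, Hcn4 and Gja1. It was above 0 in all 4 for 8 members (22.9%; 11.6% of genes). Slc8a1 had 15.4% and 91.9% of its body under peaks in the ground state (replicates 1 and 2) and 36.0% and 99.0% on day 1. The second-series libraries, replicate 2 in each state, had the higher values. By the mean of 60.6%, 402 of 21883 genes had a larger share, and 10 of the 410 genes at least as long did.

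Over Slc8a1 the mark ran the whole length of the gene and beyond it. In day 1 replicate 2 the body was touched by 3 peaks, the longest 306.7 kb, and in ground-state replicate 2 by 19, the longest 75.55 kb. In the first series the same span was broken into 25 peaks in the ground state and 98 on day 1, none longer than 4.141 kb. The 100 kb before the start were covered to 12.2% and 59.0% in the ground state and 27.5% and 87.5% on day 1. Neighbouring genes within 1.5 Mb did not share it: the most covered of them, the kinase gene Cdkl4, had 7.63% to 14.3% in the 4 lists, and most had 0. The highest peak over the body stood at percentiles 72.6 to 90.4 of its list. When each list was reduced to its strongest peaks with an equal covered length, Slc8a1 had 15.4% in ground-state replicate 1, 20.1% in day 1 replicate 1 and 0 in both second-series lists. MEF2C had 1 peak in 8 lists there, as given above.

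Ryr2 and Hcn2 followed. Ryr2 had 0.588% and 19.1% in the ground state and 5.56% and 28.1% on day 1, a mean of 13.4%, and 54 of the 190 genes at least as long had more. Its mark stood in the end of the gene away from the start and went on beyond it, with 54.9% and 55.2% of the next 100 kb covered in the second-series lists and 0 of the 100 kb before the start in all 4 lists. The single weak MEF2C peak of Ryr2 lay wholly inside H3K9me3 peaks in both second-series lists. Hcn2 had 0% and 24.3% in the ground state and 3.76% and 17.2% on day 1, with 3 peaks or fewer in each list. Of the remaining members Kcnd2 had a mean of 7.90%, Gja5, the atrial connexin 40, 7.80%, and Kcnq1 6.85%, and all others were at 3.04% or less.

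**Figure D3:**
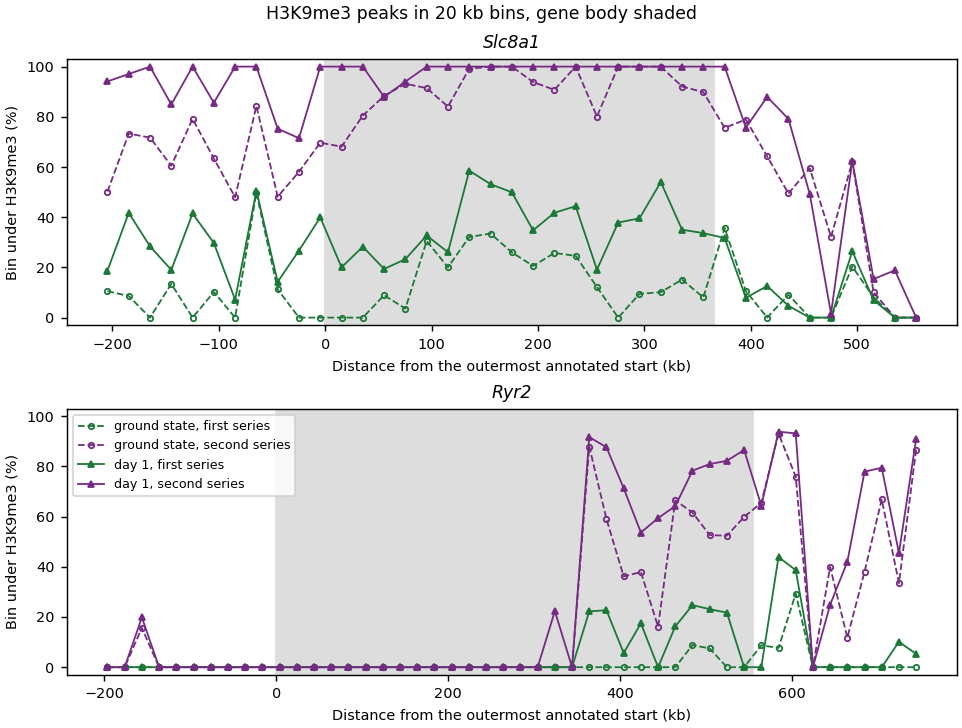
Percent of each 20 kb bin under H3K9me3 peaks along Slc8a1 and Ryr2 with 200 kb on each side, by distance in kb from the outermost annotated start, for the 4 lists (circles and dashes for the ground state, triangles and solid lines for day 1, green for the first naming series and purple for the second). Grey marks the gene. Over Slc8a1 both purple lines stay high along the body, and over Ryr2 all lines are at 0 until the far part of the gene.

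Day 1 was compared with the ground state by asking where both libraries of 1 state had a larger body share than both of the other. Camk2d was the 1 member higher on day 1 (2.86%; 0.777% of genes), and 0 were higher in the ground state (0.398% of genes). Its shares were small, 0.596% and 0.636% in the ground state and 0.776% and 1.70% on day 1 (1.24 ± 0.655 against 0.616 ± 0.0285, SD, n = 2 each; two-sided exact permutation p = 0.33, the smallest possible). That p follows from the rule of the call and adds no support. With each list cut to an equal covered length, or to its upper 50% of peaks, the call was lost. The spread between the 2 naming series was wider than the step between states for most marked members. Within each series, 8 members had more on day 1 in both (22.9%; 6.6% of genes): Cacna1c, Ryr2, Trdn, Asph, Camk2d, Slc8a1, Kcnd2 and Gja5. A further 3 had less in both (8.57%; 3.11% of genes): Cacna1d, Kcnq1 and Abcc9. Series by series, 12 members were higher and 3 lower in the first (34.3% and 8.57%; 14.5% and 5.77% of genes), and 10 higher and 9 lower in the second (28.6% and 25.7%; 12.6% and 14.8% of genes). The same was also read among genes above 0 in both ground-state lists. There 4 of 8 members were higher (50%; 25.2% of such genes) and 3 of 8 lower (37.5%; 24.8%). Day 1 lists covered more, 109.3 Mb against 65.86 Mb in the first series and 363.4 Mb against 315 Mb in the second. The part of this in the counts was not tested. With an equal covered length 2 were higher, Cacnb2 and Ryr2 (5.71%; 1.96% of genes), and 1 lower, Kcnq1 (2.86%; 2.44% of genes). The step of Ryr2 was then small in the second series, from 3.32% to 3.36%. No direction is therefore given for H3K9me3 at these genes.

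The share of these genes under H1.0 peaks was set apart by naming series. The member medians were 4.18% and 51.0% of the body in the ground state and 48.5% and 0.771% on day 1 (replicates 1 and 2), and those of all genes were 1.22%, 36.5%, 41.6% and 0. In each list the member median was the larger, but over the pooled length members had less than all genes in the first series (4.54% against 4.74% in the ground state, 1.00% against 1.44% on day 1) and more in the second (50.9% against 43.9%, and 41.7% against 39.9%). The share was above 0 in all 4 lists for 24 members (68.6%; 26.9% of genes) and 0 in all 4 for 1, Kcnj11 (2.86%; 5.56% of genes). Sln had the highest mean, 44.7%, with 0% and 100% in the ground state and 78.8% and 0% on day 1. It is 3.6 kb long, and its 2 zeros are the first-series lists. Atp2b4 had 21.7% and 63.0% in the ground state and 80.5% and 6.55% on day 1, and Pln had 7.47% and 93.0%, then 58.5% and 0%.

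By the same rule for day 1 against the ground state, 0 members were higher (0.567% of genes) and 0 lower (0.873% of genes) in H1.0. For every member the ranges of the 2 states overlapped or were both 0, and the smallest p that 2 libraries against 2 allow in an exact permutation test is 0.33. Within both naming series, 16 members had a smaller H1.0 share on day 1 (45.7%; 19.7% of genes) and 1, Atp2a2, a larger one (2.86%; 4.52% of genes). The 16 were Cacnb2, Cacna2d1, Trdn, Jph1, Fkbp1b, Pln, Slc8a1, Slc8a3, Kcnj3, Kcnq1, Kcnh2, Kcnd2, Kcnd3, Hcn4, Gja1 and Gja5. Among genes above 0 in both ground-state lists 16 of 30 members were lower (53.3%; 38.7% of such genes) and 1 higher (3.33%; 3.67%). Series by series, 2 members were higher and 29 lower in the first (5.71% and 82.9%; 9.52% and 49.3% of genes), and 14 higher and 20 lower in the second (40% and 57.1%; 50.6% and 42.1% of genes). The covered lengths moved the same way, since day 1 lists covered 28.57 Mb against 92.97 Mb in the first series and 911 Mb against 1109.4 Mb in the second. With equal covered lengths 6 members were higher and 2 lower (17.1% and 5.71%), and over all genes higher calls likewise outnumbered lower ones (5% and 1.64%). No direction is therefore given for H1.0 at these genes.

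**Figure D4:**
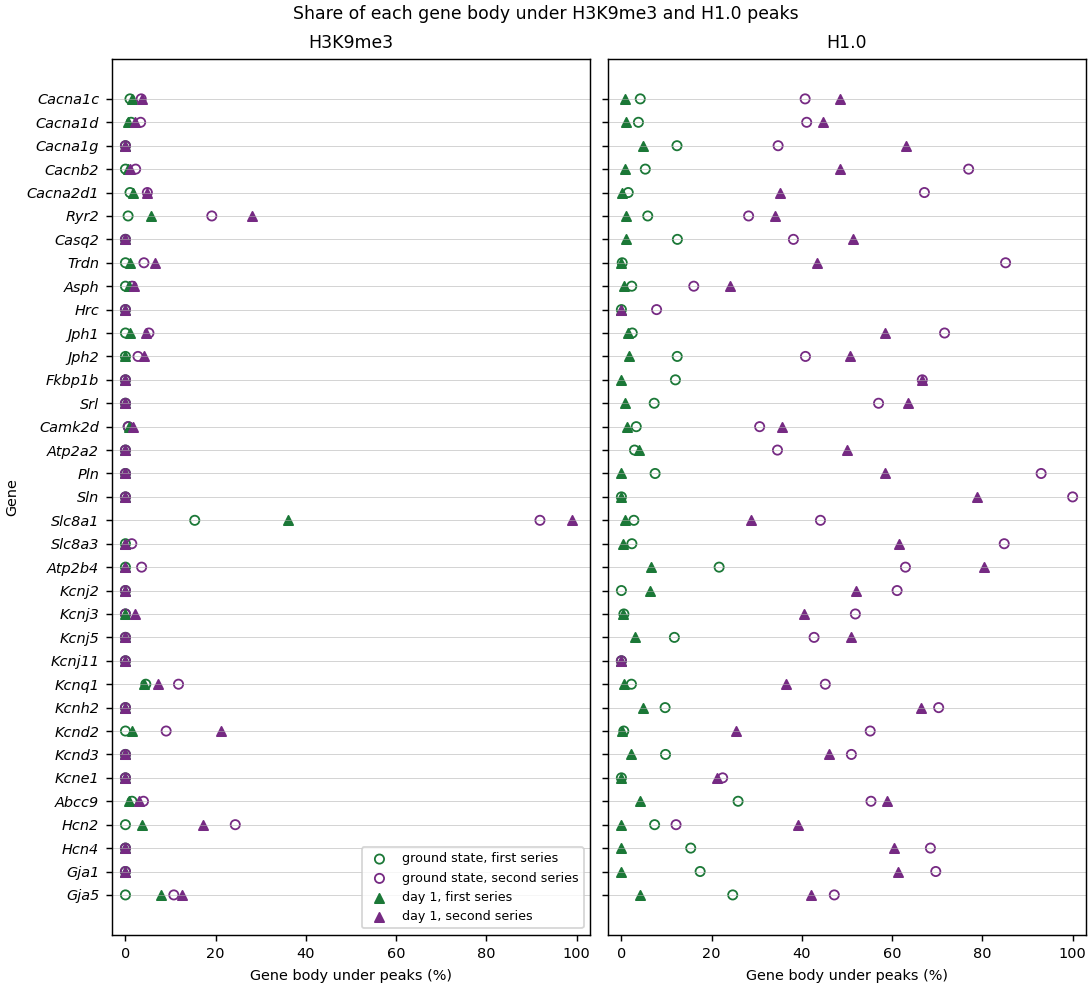
Percent of the gene body under H3K9me3 peaks (left) and H1.0 peaks (right) for the 35 genes in each library, as circles for the ground state and triangles for day 1, green for the first naming series and purple for the second. Slc8a1 stands apart for H3K9me3 with 15.4% to 99.0%. For H1.0 the colours separate more than the shapes do.

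MEF2C regions at members met H1.0 peaks about as often as MEF2C regions in general. In the ground state 15.8% and 85.2% of the 203 touched an H1.0 peak, against 20.2% and 79.9% of all regions. On day 1 it was 89.7% and 10.3%, against 88.4% and 9.86%. For H3K9me3 it was 1, 12, 6 and 10 of the 203 (0.493% to 5.91%), against 4.55% to 11.8% of all regions. Member regions were thus below all regions in each H3K9me3 list. Regions at any protein-coding locus, the closer comparison, had 3.02%, 8.13%, 4.35% and 6.74%, also below all regions. Member regions, at 0.493%, 5.91%, 2.96% and 4.93%, were below these by less. At the start of Kcnj2, H3K9me3 covered 0 of the MEF2C region in all 4 lists and H1.0 covered 0% and 99.9% of it in the ground state and 69.7% and 11.1% on day 1.

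A second list of 57 other genes of calcium handling and cardiac currents gave similar shares with the full peak lists. Both siControl lists had an end peak at 19 of 57 (33.3%, against 20.4% of genes), and all 8 lists at 7 (12.3%, against 10.1% of genes). These shares were not recounted at equal list lengths, where that of members fell below all genes. The median length of the 57 was 36.03 kb, against 17.17 kb for all genes, and the part of length was not tested. The 7 were Slc8a2, Camk2a, Orai1, Tmem38a, Cacnb3, Kcna4 and Calr, with median percentiles of 98.9, 99.2, 95.5, 93.3, 91.0, 87.2 and 68.6. Slc8a2 and Camk2a are relatives of members better known from the brain, Orai1 is the pore of store-operated calcium entry, and Tmem38a is a reticulum channel of muscle. Under siJunb, 2 of 57 were called lost at gene ends, Gja3 and Ank2, and 1 gained, Itpr3 (1.06% and 0.484% of genes). Under siH1f0, 1 was called lost, Ryr3, and 1 gained, Itpr3 (0.155% and 0.612% of genes). Itpr3, an inositol trisphosphate receptor, had end peaks in all 6 knockdown lists and in 0 of 2 siControl lists, at a median percentile of 20.5. The 2 comparisons share the siControl lists. Among lists of other tissues, both siControl lists had an end peak at 2 of 12 skeletal muscle counterparts (Casq1 and Mrln) and 1 of 22 neuronal channel genes (Cacna1a).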

How the data were processed

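CUT&RUN peak lists of 16 of the 24 labelled samples were used, 1 per sample, and the 8 IgG samples were not analysed here. Bowtie2, SEACR and mm10 are named in the submitters' processing notes, and versions, duplicate handling and any spike-in are not given in the sources used here. The deposited values are signal, whole-number sums and maxima of coverage in each peak, not scaled between lists. Depth is known only as the 30 M reads of the labels, and list length and replicate spread stand in for precision. The labels call replicates biological but do not say which step was repeated, so every p-value reflects only the spread of these libraries, part of which may be technical.

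Peaks on the autosomes, X and Y were intersected with RefSeq gene positions (GRCm38.p6, 1-based) in Python 3.11.15 with numpy 2.4.6, pandas 2.3.3 and scipy 1.17.1. An overlap of at least 1 bp counted. The table gives no exons, and strand came from the promoter table for 25 members. A MEF2C call needs every library of 1 group and none of the other; a mark call needs both shares of 1 state above both of the other. The interval code was tested on simulated data. Values in every library were to be given for members with an end peak in all 8 MEF2C lists, members with no peak, called members and the 3 with the highest share of each mark. Other genes and single regions were named after their values were seen. The members and all gene lists were chosen with earlier results of these data known.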

Additional observations from a re-analysis of the deposited data

How the results depend on the processing

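Calls rest on 2 or 3 lists of very unequal length, and none of the exact tests could reach 0.05. The 10 members with an end peak in both siControl lists became 3 with equal list lengths and 4 with the upper 50% of peaks, and 11 to 16 when 1 siControl list was left out. The 1 member lost under siJunb (Cacna1c) became 0 with equal list lengths, 0 with the upper 50%, 0 over the whole locus and 1 to 2 with 1 list left out, with Casq2 added without siControl 1, Asph without siJunb 1 and Camk2d without siJunb 3. The 0 gained under siJunb became 1 over the whole locus (Slc8a3) and 0 to 1 with 1 list left out (Kcnh2 without siControl 2). The 0 gained under siH1f0 became 1 with the upper 50% (Asph) and 0 to 1 with 1 list left out (Gja1 without siControl 2). The 0 lost under siH1f0 stayed 0 in 12 of 12 alternatives. The 1 member in siH1f0 alone against siJunb became 2 with the upper 50% and 1 to 2 with 1 list left out (siH1f0 3, siJunb 1 or siJunb 3). The 0 in siJunb alone became 0 to 1 (Kcnh2 without siH1f0 3). Windows of 2 and 10 kb and peak midpoints left each count within 1.5 times its value.

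For H1.0, 0 members higher on day 1 became 2 with equal covered length, 1 with the naming series as pairs, 6 with both, and 0 to 14 with 1 list left out. The 0 lower became 1, 16, 2 and 0 to 29. For H3K9me3, the 1 higher became 0 with equal covered length, 0 with the upper 50%, 8 with naming series as pairs, 2 with both, and 1 to 12 with 1 list left out. The 0 lower became 3 with naming series as pairs, 1 with both, and 0 to 9 with 1 list left out. The highest of these came without ground state 2 (12 higher, H3K9me3), without ground state 1 (9 lower, H3K9me3), without day 1 replicate 2 (14 higher, H1.0) and without day 1 replicate 1 (29 lower, H1.0). The naming-series and whole-locus alternatives, and the shares over all genes for equal lengths, were chosen after seeing the data. Why the counts moved was not tested.

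The replicate numbers do not pair the samples, since correlations of same-numbered deviations over 13667 genes ran from -0.155 to 0.277. The naming series did group them: correlations between groups were 0.0203 to 0.351 within a series and -0.351 to -0.0745 across series, where the 2 siControl deviations mirror each other by construction. Taking the numbers as a replicate block gave 2 lost under siJunb and, for H3K9me3, 8 higher and 3 lower, where numbers and naming series coincide, and left the other counts at 0, or at 1 for siH1f0 alone against siJunb.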
